A study of Mus musculus with 2 samples.

Results

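The potassium channel genes were taken as every gene symbol in the deposited counts that begins with Kcn, which gave 98 of 40879 symbols. Of these, 93 name channel subunits and 5 do not: Kcnq1ot1, Kcnrg, Kcnd3os, Kcnmb4os1 and Kcnmb4os2 are non-coding RNAs, antisense transcripts or a regulator. The study asked how partial loss of Erap1, which encodes an aminopeptidase of the endoplasmic reticulum that trims peptides for antigen presentation, alters gene expression in the colon. Wild-type (WT) mice were compared with ERAP1+/- mice, which carry 1 allele from which a Cre strain removed exons 6 to 7 of Erap1 between loxP sites, starting from a EUCOMM tm1a allele. Which cells the Cre was active in is not given in the sources used here. All mice were of the C57BL/6 background and 8 weeks old when the experiment began, and the labels name the tissue as intestine and no treatment. Equal amounts of RNA from 3 mice were pooled into 1 library per genotype, so that no difference between genotypes can be tested here and no p-value is given.

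Potassium channels let potassium ions leave or enter cells along their electrochemical gradient and set the membrane potential. In the colonic epithelium, basolateral channels return the potassium taken up by the sodium pump and by the sodium-potassium-chloride cotransporter, which keeps up the driving force for chloride secretion, and apical channels secrete potassium into the lumen. In the muscle layers and the enteric nervous system, other members of the same families set slow-wave activity, contraction and nerve firing.

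Counted reads numbered 8114826 for WT and 8907515 for the library labelled ERAP1+/-. Erap1 itself had 229 reads in WT but 2 in the library labelled ERAP1+/-, far fewer than 1 intact copy would give, so that this library is referred to by its label throughout. The pools also differed in other ways. The summed reads of 12 skeletal muscle markers were 5821 and 181, those of 10 epidermis markers 16801 and 332, and Xist had 1635 and 6451 reads, while Ddx3y, on the Y chromosome, had 319 and 29. Epithelium markers, which define the labelled tissue, summed to 100760 and 117563 reads.

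Values are reads, or CPM, in which reads are scaled to a common library size adjusted with the TMM method (trimmed mean of M values). A ratio is the scaled level in the library labelled ERAP1+/- over that in the WT library, with an exact 95% interval that covers counting error only and not the spread between mice. Because the libraries were made from the 3' ends of transcripts, levels of different genes are compared in CPM without division by transcript length. Where no read was counted, a level of up to 3 reads is possible, which corresponds to 0.386 CPM for WT and 0.322 CPM for the library labelled ERAP1+/-. In tissue RNA, fewer cells of a type and less RNA per cell cannot be told apart, which holds for every level below.

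Together the Kcn symbols took 5779 reads (0.0712%) of the WT library and 7933 reads (0.0891%) of the library labelled ERAP1+/-, a ratio of 1.15 (95% interval 1.11 to 1.19). Without the 5 symbols that are not channels, the sums were 4799 and 6828 reads and the ratio was 1.19 (1.15 to 1.23). Both sums are weighted by the most read gene, Kcne3, which alone had 1007 and 2148 reads. Of the single symbols with enough reads for a ratio, 19 lay above 1 and 27 below it, with a median log2 ratio of -0.18. A small number of genes carried the family: the 5 channel genes with the most reads, Kcne3, Kcnk1, Kcnk5, Kcnma1 and Kcnq1, were the same in both libraries and held 2814 reads (48.7% of the Kcn reads) in WT and 4327 (54.5%) in the library labelled ERAP1+/-. At the other end, 13 symbols had no read in either library, 39 had 1 to 19 reads over both libraries, and 46 reached the 20 reads that were required for a ratio. The number of symbols at 0 was 24 in the WT library and 16 in the other, and 12 and 16 symbols had at least 100 reads.

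The order of the levels differed in part between the libraries. In the WT library, Kcne3 (1007 reads) was followed by Kcnk1 (633), Kcnk5 (477), Kcnma1 (397) and Kcnq1 (300), and each of these exceeded the next beyond counting error. In the library labelled ERAP1+/-, Kcne3 stood at 3.51 times (3.21 to 3.85) the reads of the next gene, Kcnma1, compared with 1.59 times (1.44 to 1.76) in WT. Below it, Kcnma1 (612 reads), Kcnk1 (574), Kcnq1 (520) and Kcnk5 (473) formed a row in which no gene differed from its neighbour beyond counting error, and Kcnn4 came next with 317.

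**Figure D1:**
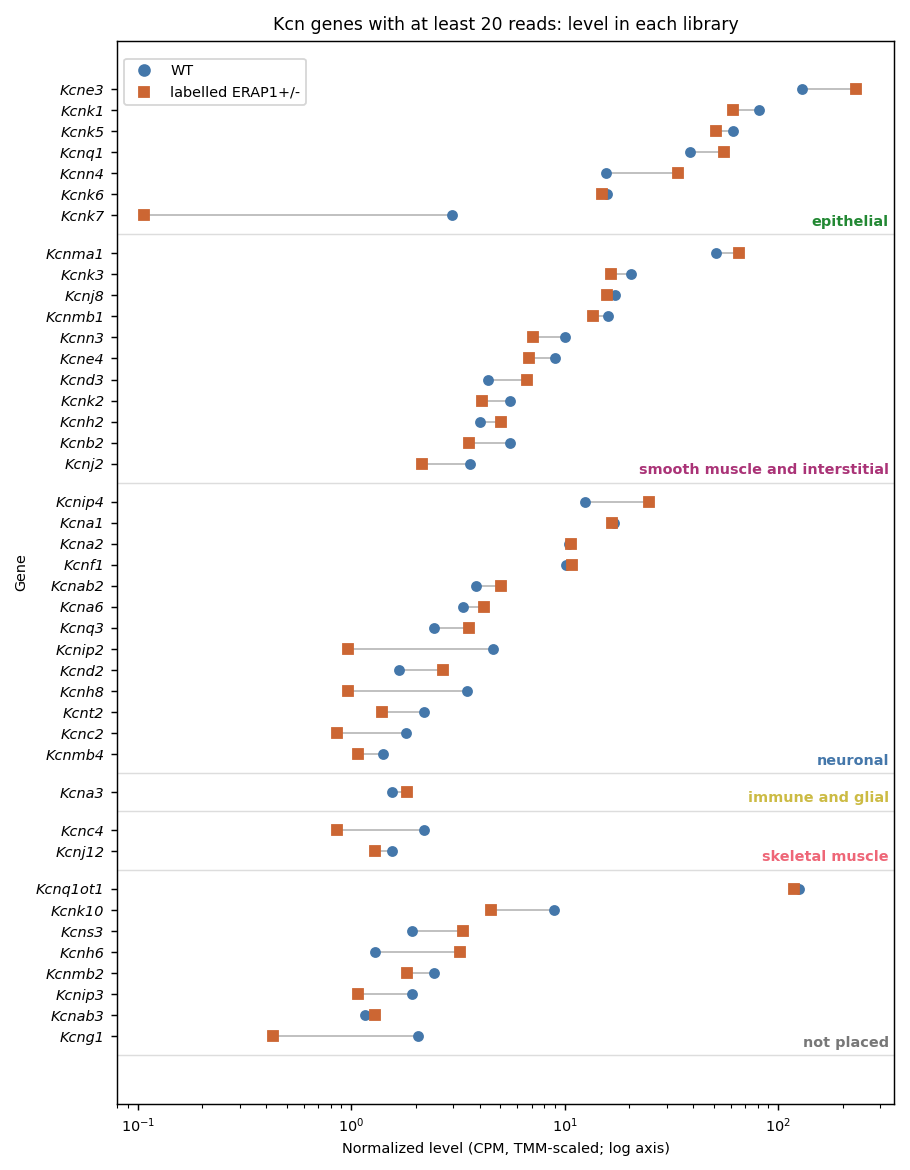
Normalized level (CPM, TMM-scaled, log axis) of 42 of the 46 Kcn symbols with at least 20 reads in the WT library (circles) and the library labelled ERAP1+/- (squares), ordered within tissue groups by their reads. Kcne3 is the highest in both libraries, at 130 and 231 CPM, and Kcnk7 shows the widest gap, from 2.96 to 0.107 CPM.

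Among the 46 symbols with enough reads, 2 were more than 2-fold higher in the library labelled ERAP1+/- (4.35%), Kcnh6 and Kcnn4, where 5.39% of all 14592 genes with as many reads were. A further 6 were more than 2-fold lower (13%), namely Kcnc2, Kcnc4, Kcng1, Kcnh8, Kcnip2 and Kcnk7, where 7.08% of all genes were. With scaling by the total count of each library in place of TMM, which shifts all genes up by 0.125 on the log2 scale, the same threshold gave 3 higher and 5 lower. With the additional demand that log2(CPM + 1) reached 4 in either library, 13 Kcn symbols remained and 1 of them, Kcnn4, passed 2-fold (7.69%, against 5.34% of all 8013 genes at that level). The counting interval lay above 1 for 6 symbols (13%, against 21.7% of all genes) and below 1 for 9 (19.6%, against 24.9%). The median log2 ratio of the 46 symbols was -0.18, with 19 above a ratio of 1 and 27 below it, and the median of all genes was 0.0034.

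**Figure D2:**
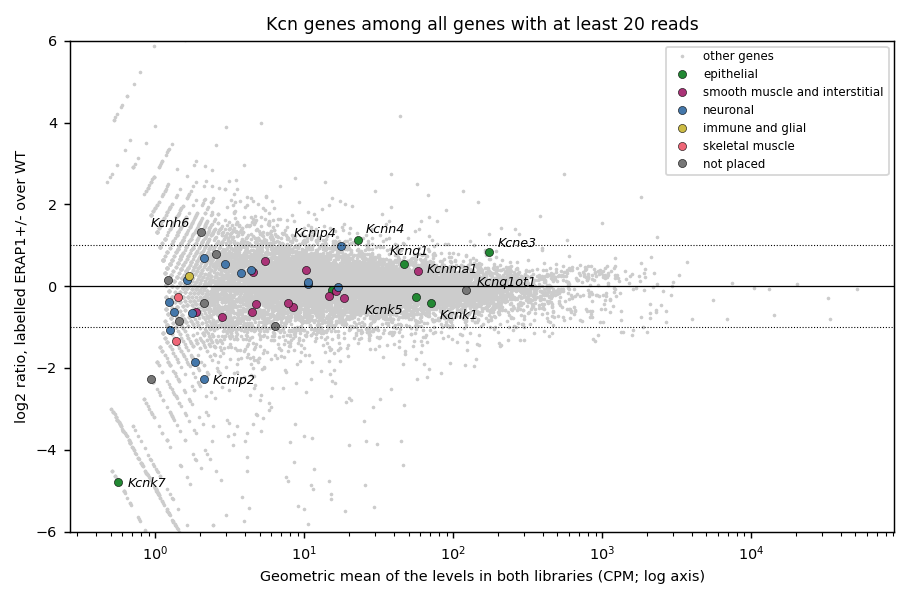
Log2 ratio of the library labelled ERAP1+/- over WT against the geometric mean of both levels (CPM, log axis, levels under 0.1 CPM drawn at 0.1) for every gene with at least 20 reads, with Kcn symbols coloured by tissue group. Dotted lines mark 2-fold, and 84 genes beyond a log2 ratio of 6 in either direction are not drawn. Kcnn4 and Kcne3 stand near the upper 2-fold line at high levels, and the Kcn symbols past the lower line all have low levels.

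The epithelial channels were the most abundant group, and 3 of them with linked roles were higher in the library labelled ERAP1+/-. Kcne3 encodes the accessory subunit that holds the Kcnq1 channel open in the basolateral membrane of crypt cells. Kcne3 had 1007 reads in WT and 2148 in the library labelled ERAP1+/- (130 and 231 CPM), a ratio of 1.78 (1.65 to 1.92). Its pore-forming partner Kcnq1, a voltage-gated channel that cyclic AMP acts on in chloride-secreting cells, had 300 and 520 reads (38.6 and 55.9 CPM), a ratio of 1.45 (1.25 to 1.67). Kcnn4, the intermediate-conductance calcium-activated channel that supports secretion evoked by acetylcholine and is also found in immune cells, had 121 and 317 reads (15.6 and 34.1 CPM), a ratio of 2.19 (1.77 to 2.72). All 3 lie on chromosome 7 of the mouse build GRCm38, Kcne3 at chr7:100176502-100184869, Kcnq1 at chr7:143106362-143427042 and Kcnn4 at chr7:24370263-24386690, on the plus strand.

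The higher levels of the 3 genes were not equal in size. Within a library, where no scaling is needed, Kcne3 had 3.36 reads for each read of Kcnq1 in WT and 4.13 in the library labelled ERAP1+/-, an odds ratio of 1.23 (1.04 to 1.45). Kcnn4 had 0.403 and 0.610 reads for each read of Kcnq1, an odds ratio of 1.51 (1.17 to 1.97). Both quotients therefore moved beyond counting error towards more Kcne3 and more Kcnn4 for each Kcnq1 read.

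Promoter sequences, from 250 bases before to 50 bases after each annotated start, are shown for Kcne3 and Kcnn4, the epithelial members with the highest level and the highest ratio. RefSeq (GRCm38.p6) gives 2 starts for Kcne3, at chr7:100176420-100176719 and chr7:100178433-100178732, and 1 for Kcnn4, at chr7:24370013-24370312, all on the plus strand. Capitals mark the GC box letters GGGCGG, searched on both strands, so that the reverse complement appears as CCGCCC.
Kcne3, upstream start: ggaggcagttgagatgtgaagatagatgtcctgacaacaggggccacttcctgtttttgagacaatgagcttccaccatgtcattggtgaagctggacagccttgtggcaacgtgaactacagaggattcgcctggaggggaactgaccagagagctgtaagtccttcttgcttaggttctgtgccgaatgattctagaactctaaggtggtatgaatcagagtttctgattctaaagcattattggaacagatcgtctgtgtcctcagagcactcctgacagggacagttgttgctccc
Kcne3, downstream start: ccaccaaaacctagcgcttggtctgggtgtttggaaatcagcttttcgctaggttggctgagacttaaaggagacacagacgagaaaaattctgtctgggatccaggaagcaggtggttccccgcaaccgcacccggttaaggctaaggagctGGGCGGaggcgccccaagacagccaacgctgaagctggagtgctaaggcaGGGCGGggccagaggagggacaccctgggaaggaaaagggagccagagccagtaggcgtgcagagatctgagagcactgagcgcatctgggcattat
Kcnn4: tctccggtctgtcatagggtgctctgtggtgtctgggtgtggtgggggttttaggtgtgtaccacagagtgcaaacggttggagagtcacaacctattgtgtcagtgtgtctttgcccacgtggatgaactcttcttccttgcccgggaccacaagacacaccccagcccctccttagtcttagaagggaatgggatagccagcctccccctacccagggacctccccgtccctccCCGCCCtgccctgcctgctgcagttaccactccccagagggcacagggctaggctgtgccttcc
The upstream Kcne3 window held no match, the downstream window 2 and the Kcnn4 window 1. At least 1 match was present for 44 of the 72 Kcn genes with a promoter in this set (61.1%), compared with 10324 of 27025 genes (38.2%). The share was 6 of 10 epithelial Kcn genes, 5 of 12 in the smooth muscle and interstitial group and 19 of 24 in the neuronal group. The CArG box, bound by serum response factor in muscle genes, had no match in these windows for any of the 72 Kcn genes and a match for 488 genes (1.81%) of the whole set. A match is a description of the letters and not of a bound site, and Kcnq1 was not in the promoter set.

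The 2-pore channels of the epithelium, which pass background potassium current, did not share this direction. Kcnk1, a weakly inward rectifying 2-pore channel at chr8:125995170-126030685 (plus strand), had 633 reads in WT and 574 in the library labelled ERAP1+/- (81.5 and 61.7 CPM), a ratio of 0.757 (0.675 to 0.849). Kcnk5, which is opened by alkaline pH, at chr14:20140057-20181809 (minus strand), had 477 and 473 reads (61.4 and 50.8 CPM), a ratio of 0.828 (0.728 to 0.943). For Kcnk6, a relative of Kcnk1, 123 and 139 reads (15.8 and 14.9 CPM) gave a ratio of 0.944 (0.735 to 1.21), so that a difference was not detectable at this depth. The quotient of Kcnk1 to Kcnk6 was 5.15 in WT and 4.13 in the other library, and its odds ratio of 0.803 (0.608 to 1.06) included 1. Kcnk7, a relative of Kcnk1 for which no current of its own is established, had 23 reads in WT and 1 in the library labelled ERAP1+/-, a ratio of 0.0363 (0.000882 to 0.224).

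Of the 13 genes in the epithelial group, 7 had enough reads, 3 above a ratio of 1 and 4 below it, and the counting interval lay above 1 for 3 and below 1 for 3, where it did so for 21.7% and 24.9% of all genes with enough reads. One gene, Kcnj1, which encodes a renal and colonic inward rectifier, had no read in either library, and the other 5 had between 1 and 16 reads over both. The group summed to 2695 reads in WT and 4190 in the library labelled ERAP1+/- (347 and 450 CPM), a ratio of 1.30 (1.24 to 1.36). Without Kcne3 it was 1688 and 2042 reads, a ratio of 1.01 (0.947 to 1.08). The median log2 ratio of the 7 genes was -0.083, of the opposite sign to the sum, and it was 0.042 with scaling by the total count.

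Markers of the epithelium moved in both directions beside these channels. The 11 markers summed to a ratio of 0.975 (0.966 to 0.983), with 9 of them below 1. The lowest was Krt20, a keratin of surface colonocytes, at 0.433, and the highest was Muc2, the goblet cell mucin, at 2.29 (12020 and 32939 reads). Set against the epithelium markers of the same library, the epithelial Kcn group had an odds ratio of 1.33 (1.27 to 1.40), Kcne3 of 1.83 (1.69 to 1.97) and Kcnn4 of 2.25 (1.82 to 2.79). These odds ratios use the marker sum, in which the Muc2 reads weigh heavily. The median log2 ratio of the 11 markers was -0.32. The epithelial 2-pore genes had log2 ratios of -0.40 (Kcnk1), -0.27 (Kcnk5), -0.083 (Kcnk6) and -4.78 (Kcnk7). The part of crypt and goblet cell content in these differences was not tested.

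**Figure D3:**
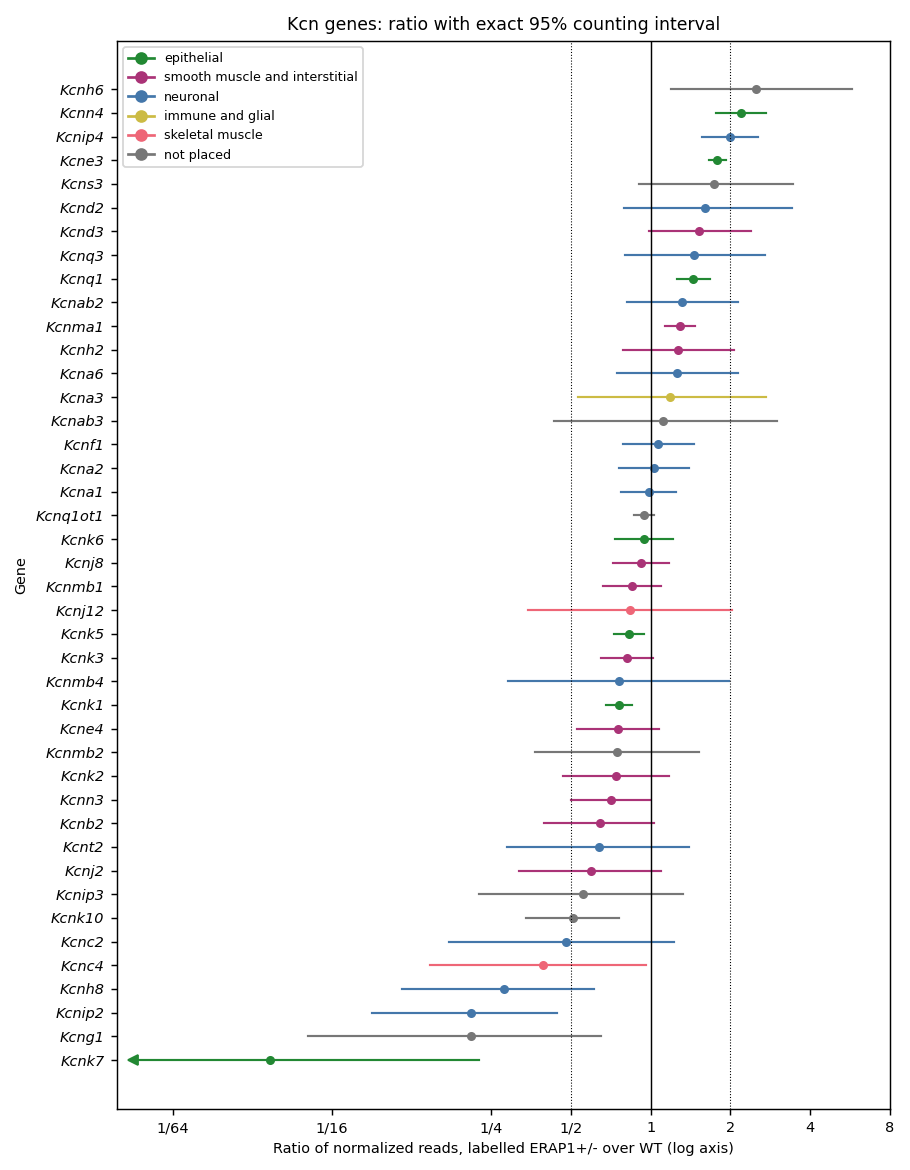
Ratio of normalized reads, library labelled ERAP1+/- over WT (log axis), for 42 of the 46 Kcn symbols with at least 20 reads, with exact 95% counting intervals, sorted by ratio and coloured by tissue group. The arrow marks an interval that runs beyond the axis (Kcnk7), and dotted lines mark 2-fold. The intervals of 6 symbols lie above 1 and those of 9 below it.

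Channels of smooth muscle and of interstitial cells gave little difference in their sum and mostly small ratios below 1. Kcnma1, the large-conductance calcium-activated channel (BK) of smooth muscle, which also secretes potassium across the apical membrane of colonocytes, was the exception. Kcnma1, at chr14:23289431-24014491 (minus strand), had 397 reads in WT and 612 in the library labelled ERAP1+/- (51.1 and 65.8 CPM), a ratio of 1.29 (1.13 to 1.46). Its smooth muscle accessory subunit Kcnmb1, at chr11:33963013-33973641 (plus strand), had 124 and 126 reads, a ratio of 0.849 (0.657 to 1.10). The quotient of Kcnmb1 to Kcnma1 was 0.312 in WT and 0.206 in the other library, an odds ratio of 0.659 (0.494 to 0.880), and thus was lower beyond counting error. Lrrc26, the accessory subunit of BK in secretory epithelium, had 173 and 183 reads, a ratio of 0.884 (0.714 to 1.09), and Kcnma1 to Lrrc26 had an odds ratio of 1.46 (1.13 to 1.87). Relative to each of these subunits there were more Kcnma1 reads in the library labelled ERAP1+/-.

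The subunits of the ATP-sensitive channel of vascular and visceral muscle also differed from each other. Kcnj8, its pore-forming inward rectifier, had 133 and 146 reads (17.1 and 15.7 CPM), a ratio of 0.917 (0.720 to 1.17). Abcc9, the sulfonylurea receptor that Kcnj8 assembles with, had 186 and 320 reads, a ratio of 1.44 (1.196 to 1.73). The quotient of Kcnj8 to Abcc9 was 0.715 in WT and 0.456 in the library labelled ERAP1+/-, an odds ratio of 0.638 (0.469 to 0.868).

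Among the other muscle and interstitial channels, 1 interval left out 1. Kcnn3, the small-conductance calcium-activated channel of the interstitial cells that relay inhibitory nerve signals, had 78 reads in WT and 66 in the library labelled ERAP1+/- (10.0 and 7.09 CPM), a ratio of 0.707 (0.501 to 0.994). The acid-sensitive 2-pore channel Kcnk3 had 158 and 154 reads, a ratio of 0.814 (0.648 to 1.02), and the stretch-sensitive 2-pore channel Kcnk2 had 43 and 38, a ratio of 0.738 (0.464 to 1.17). Kcnb2, a delayed rectifier that repolarizes muscle cells, had 43 and 33 reads with a ratio of 0.641 (0.395 to 1.03). These 3 genes stood below 1 with intervals that included 1.

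The intervals of the further members also included 1. Kcnd3, a rapidly inactivating A-type channel, had 34 and 62 reads, a ratio of 1.52 (0.987 to 2.39). Kcnh2, the ether-a-go-go-related channel, had 31 and 47 reads and a ratio of 1.27 (0.788 to 2.06). The accessory subunit Kcne4 (70 and 63 reads) and the inward rectifier Kcnj2 (28 and 20) had ratios of 0.752 and 0.597. Over the 13 genes of the group with enough reads, 4 stood above a ratio of 1 and 9 below it, and the median log2 ratio was -0.30. Of all 14592 genes with enough reads, 7353 stood above 1 and 7239 below it, with a median of 0.0034. The counting interval lay above 1 for 1 gene of the group and below 1 for 1, where it did so for 21.7% and 24.9% of all genes.

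The summed reads of the smooth muscle and interstitial group were 1243 in WT and 1508 in the library labelled ERAP1+/- (160 and 162 CPM), a ratio of 1.01 (0.939 to 1.09). Without Kcnma1 they were 846 and 896, a ratio of 0.885 (0.804 to 0.973). The 10 smooth muscle markers were all lower in the library labelled ERAP1+/-, from 88391 to 53916 reads in sum, a ratio of 0.510 (0.504 to 0.515), and their log2 ratios ran from -1.18 to -0.67. Set against these markers within each library, the Kcn group had an odds ratio of 1.99 (1.84 to 2.15). Markers of the interstitial cell of Cajal, the pacemaker cell of the gut, were higher in sum, at 1742 and 2462 reads with a ratio of 1.18 (1.11 to 1.26). Most of these reads were of Ano1, with 1583 and 2075 reads and a ratio of 1.09, which is also listed among the ion transport partners below. Kit among these markers had 72 and 202 reads. The lower level of smooth muscle markers went along with the 9 ratios below 1 in this group, and its part in them was not tested.

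**Figure D4:**
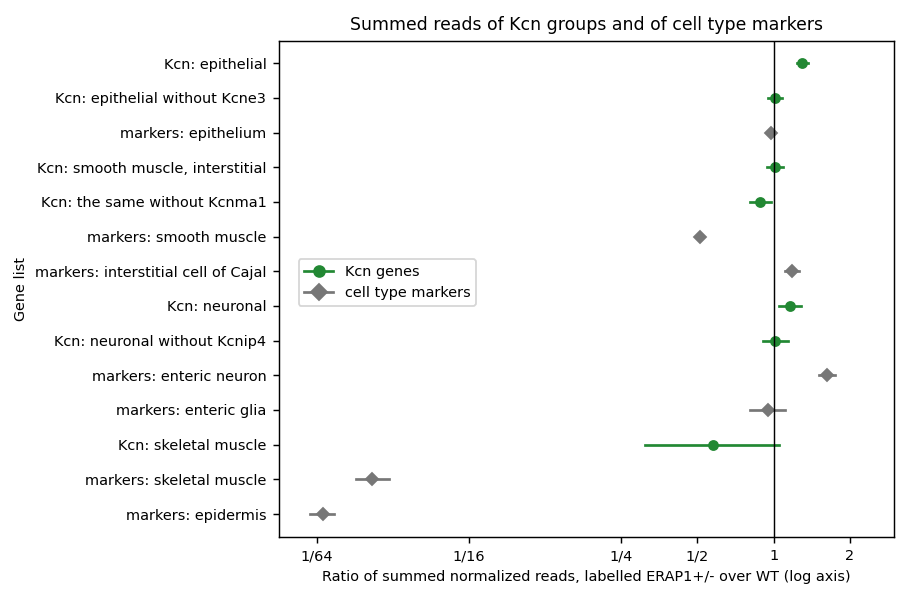
Ratio of summed normalized reads, library labelled ERAP1+/- over WT (log axis), for the tissue groups of Kcn genes (circles) and for marker lists of cell types (diamonds), with exact 95% counting intervals. The epithelial Kcn group lies at 1.30 and at 1.01 without Kcne3, while the smooth muscle markers lie at 0.510 and the enteric neuron markers at 1.62.

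Among the neuronal channels, Kcnip4 and Kcnip2 had ratios in opposite directions. Both encode calcium-binding partners of the A-type Kv4 channels. Kcnip4, at chr5:48389502-49524907 (minus strand), had 97 reads in WT and 231 in the library labelled ERAP1+/- (12.5 and 24.8 CPM), a ratio of 1.99 (1.56 to 2.55), just under 2-fold. Kcnip2, at chr19:45791839-45816061 (minus strand), had 36 and 9 reads (4.63 and 0.967 CPM), which is 4.79-fold lower (2.26 to 11.3). Kcnd2, a pore-forming gene of the channel that both partners bind, had 13 and 25 reads, a ratio of 1.61 (0.791 to 3.42). The direction of Kcnd2 was that of Kcnip4, although its interval included 1.

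The Kv1 channels of axons, the most read neuronal pore-forming genes, had ratios close to 1 or somewhat above it. Kcna1 had 132 reads in WT and 155 in the library labelled ERAP1+/-, a ratio of 0.981 (0.773 to 1.25), and Kcna2 had 81 and 100, a ratio of 1.03 (0.762 to 1.40). Kcna6 had 26 and 39 reads, a ratio of 1.25 (0.744 to 2.14). Their cytoplasmic subunit Kcnab2 had 30 and 47 reads, a ratio of 1.31 (0.811 to 2.14). The intervals of these 4 genes all included 1.

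Kcnf1, a modulatory subunit that is silent by itself, had 79 and 101 reads, a ratio of 1.07 (0.788 to 1.45). Kcnq3, a subunit of the M current, which damps repetitive firing, had 19 and 33 reads, a ratio of 1.45 (0.801 to 2.70). Lower values were found for Kcnh8, a channel of the ether-a-go-go family with 27 and 9 reads, which was 3.59-fold lower (1.64 to 8.68). The fast delayed rectifier Kcnc2 had 14 and 8 reads, a ratio of 0.477 (0.173 to 1.22). The sodium-activated Kcnt2 (17 and 13 reads) and the neuronal BK subunit Kcnmb4 (11 and 10) stood at 0.639 and 0.759, also with intervals that included 1. Of the 15 neuronal genes with enough reads, those past 2-fold were thus Kcnip2, Kcnh8 and Kcnc2, all lower and all with at most 45 reads over both libraries. Of all genes with enough reads, 7.08% were past 2-fold lower and 5.39% higher.

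In sum the neuronal group, with 15 of 33 genes above the read minimum, had 643 reads in WT and 894 in the library labelled ERAP1+/-, a ratio of 1.16 (1.05 to 1.29), and without Kcnip4 546 and 663, a ratio of 1.01 (0.904 to 1.14). The 13 enteric neuron markers summed to 1098 and 2129 reads, a ratio of 1.62 (1.51 to 1.74), with 11 of them above 1. Set against these markers within each library, the neuronal Kcn group had an odds ratio of 0.717 (0.632 to 0.814). Nitrergic and peptidergic marker genes were among the higher ones, with Nos1 at 99 and 230 reads and Vip at 129 and 348. The epithelial group relative to the neuronal group had an odds ratio of 1.12 (0.998 to 1.25), and relative to the smooth muscle and interstitial group 1.28 (1.17 to 1.40).

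Channels of immune cells, glia and skeletal muscle had few reads. Kcna3, the voltage-gated channel of T cells, had 12 reads in WT and 17 in the library labelled ERAP1+/-, a ratio of 1.18 (0.533 to 2.72), and the T cell markers Cd4 (21 and 15 reads), Cd8a (5 and 3), Cd3d (2 and 3) and Cd3e (0 and 8) were as low. With the 4 macrophage markers, which held nearly all of these reads, the list summed to 956 and 1424. Kcnj10, the inward rectifier of glia, lay under the read minimum with 2 and 16 reads and is named after its values were seen, while the 4 enteric glia markers gave a ratio of 0.946 (0.809 to 1.11) in sum. For skeletal muscle, Kcnc4 had 17 and 8 reads, which is 2.54-fold lower (1.04 to 6.81), and Kcnj12, an inward rectifier, had 12 and 12, a ratio of 0.835 (0.343 to 2.03). Kcna7 had no read in either library, although the WT library held 1490 reads of Acta1, the skeletal muscle actin. The 12 skeletal muscle markers were 38.5-fold lower in sum (33.2 to 44.9), so that the ratios of the 2 detected skeletal muscle channels were far nearer to 1 than those of the markers.

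The genes placed in no tissue group included the second most read Kcn symbol, Kcnq1ot1. This long non-coding RNA is transcribed from the strand opposite to Kcnq1, inside that gene (chr7:143203458-143296549, minus strand), and silences neighbouring genes on the paternal chromosome. Kcnq1ot1 had 976 reads in WT and 1103 in the library labelled ERAP1+/- (126 and 119 CPM), a ratio of 0.944 (0.865 to 1.03), compared with 1.45 for Kcnq1. Whether the counting used the strand is not stated, so that reads of the exons that Kcnq1 and Kcnq1ot1 share cannot be told apart. Of the 46 symbols, 16 overlap an exon of another annotated gene on either strand. For Kcne3 the overlapping gene, Gm34821, had 1 and 8 reads.

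Kcnh6, an ether-a-go-go-related channel, was the symbol with the highest ratio, with 10 reads in WT and 30 in the library labelled ERAP1+/-, a ratio of 2.51 (1.19 to 5.75). Kcns3, a silent modulatory subunit, had 15 and 31 reads and a ratio of 1.73 (0.904 to 3.44). Kcng1, another silent subunit, had 16 and 4 reads, which is 4.79-fold lower (1.54 to 19.7). The stretch-sensitive Kcnk10, a relative of Kcnk2, had 69 and 42 reads, 1.97-fold lower (1.32 to 2.96). Of these genes Kcnk10 had the narrowest interval, and Kcnk10 lay just short of the 2-fold threshold. The other 3 genes without a group, Kcnip3, Kcnmb2 and Kcnab3, had ratios from 0.557 to 1.11 with intervals that included 1.

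The 6 Kcn genes past 2-fold in the lower direction all had at most 45 reads over both libraries, and their lower side was the library with few skeletal muscle and epidermis reads. In that library 3 of the 10 epidermis markers were at 0, and the list was 60.6-fold lower in sum (54.3 to 67.7). The part of these tissues in the lower values of Kcnk7, Kcnip2, Kcng1, Kcnh8, Kcnc4 and Kcnc2 was not tested.

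By structural class, the 2-pore channels were the one class of more than 3 genes whose ratios were all on the same side. The 7 with enough reads (Kcnk1, Kcnk2, Kcnk3, Kcnk5, Kcnk6, Kcnk7 and Kcnk10) lay below 1, as did 7239 of all 14592 genes, and 4 of them did so with the whole interval, as did 24.9% of all genes. Under total-count scaling 6 of the 7 lay below 1, Kcnk6 was at 1.03, and the interval of Kcnk5 came to include 1, which left 3 genes with the whole interval below 1. The class with all its 14 genes, those with few reads included, summed to 1528 reads in WT and 1427 in the library labelled ERAP1+/-, a ratio of 0.780 (0.725 to 0.839). The calcium-activated and sodium-activated class summed to 621 and 1020 reads, a ratio of 1.37 (1.24 to 1.52), and the accessory subunits of voltage-gated channels, mostly Kcne3 reads, to 1268 and 2532, a ratio of 1.67 (1.56 to 1.79). The voltage-gated pore-forming genes were spread on both sides, with 13 of the 21 that had enough reads above 1 and a ratio of 1.18 (1.09 to 1.28) for the sum of all 40. For the inward rectifiers, the 3 genes with enough reads were below 1, but the class with all its genes summed to 1.01 (0.835 to 1.23), and of the 4 BK accessory subunits the 3 with enough reads were below 1, with a ratio of 0.846 (0.673 to 1.06) for the sum of all 4.

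The genes under the read minimum more often had their higher count in the library labelled ERAP1+/-. Of the 39 Kcn symbols with 1 to 19 reads, 27 had more reads in the library labelled ERAP1+/- (69.2%), 7 had more in WT (17.9%) and 5 had equal reads. Among all 7246 genes with 1 to 19 reads, 51.9% had more in the library labelled ERAP1+/- and 40.9% more in WT. The 39 symbols summed to 92 and 179 reads, a ratio of 1.63 (1.26 to 2.11), compared with 0.941 (0.923 to 0.960) for all genes of that range. None of them exceeded 1.72 CPM in either library. The 13 symbols without a read were Kcna7, Kcna10, Kcnd3os, Kcne1l, Kcnh4, Kcnh5, Kcnj1, Kcnk4, Kcnk9, Kcnk15, Kcnk18, Kcnmb4os1 and Kcns2. Just inside the minimum, at 20 or 21 reads, were Kcng1, Kcnab3 and Kcnmb4, and just outside it, with 18 or 19, were Kcnj10 and Kcnh1.

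Among genes that work with potassium channels in ion transport, those for chloride entry and exit in crypt cells were higher. Slc12a2, the cotransporter that loads chloride and potassium into crypt cells, had 1111 reads in WT and 2419 in the library labelled ERAP1+/- (143 and 260 CPM), a ratio of 1.82 (1.69 to 1.95). Cftr, the apical chloride channel, had 352 and 978 reads, a ratio of 2.32 (2.05 to 2.63). The ratios of these chloride secretion genes and of Kcne3, Kcnq1 and Kcnn4 were thus on the same side, between 1.45 and 2.32. Slc9a3, the apical sodium-hydrogen exchanger, had 7 and 60 reads, a ratio of 7.16 (3.27 to 18.6), and Ano1, the calcium-activated chloride channel, had 1583 and 2075, a ratio of 1.09 (1.03 to 1.17).

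The other partners were mostly lower. Atp12a, the colonic hydrogen-potassium pump that takes up luminal potassium, had 4562 reads in WT and 2573 in the library labelled ERAP1+/- (587 and 277 CPM), which is 2.12-fold lower (2.02 to 2.23). Dpp6, a partner of Kv4 channels, had 29 and 15 reads, 2.31-fold lower (1.201 to 4.65). Of the 30 partner genes, 22 had enough reads, 7 above a ratio of 1 and 15 below it, with 2 past 2-fold higher and 4 lower, and the median log2 ratio was -0.37. Of all 14592 genes with enough reads, 5.39% were past 2-fold higher and 7.08% lower, and their median was 0.0034.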

How the data were processed

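Colonic RNA of 3 mice per genotype was pooled into 1 library each and sequenced from 3' transcript ends with single reads of 75 bases. The authors deposited raw counts, whole numbers of reads per gene symbol, for 40879 symbols in each library. The methods name STAR with HTSeq, and both they and the submitters' processing notes name Bowtie2 and RSEM on GRCm38, and which made the counts is not stated. Depth was 8114826 and 8907515 reads.

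TMM factors (0.958 for WT, 1.04 for the library labelled ERAP1+/-) came from edgeR 4.0.16 in R 4.3.3, and exact conditional binomial 95% intervals from scipy 1.17.1. With 1 library per genotype, edgeR's quasi-likelihood model could not be fitted. A ratio needed 20 reads over both libraries, and log2(CPM + 1) used a pseudocount of 1. The calculations were tested on simulated data. The Kcn genes, tissue groups, partner and marker lists were chosen with earlier results of these data known, and the groups rest on textbook knowledge.

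Named were Kcn symbols past 2-fold, the 15 with the most reads, members of the tissue groups with 20 reads, and partners past 2-fold together with Abcc9, Lrrc26, Slc12a2 and Ano1, except that some genes under this rule are counted but not reported here by name. Other genes are named as examples chosen after their values were seen. Gene positions come from GENCODE M21, matched by symbol (98 of 98 matched), and promoters from RefSeq (72 of 98). Protein sequences were not used here. Alternatives were DESeq2 1.42.0 size factors, total-count scaling, scaling by markers, other filters, thresholds and pseudocounts, a 99% interval, and sums without the most read gene.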

Additional observations from a re-analysis of the deposited data

How the results depend on the processing

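No paired analysis was possible because the libraries number 1 per genotype, and none could be left out. Of the Kcn symbols, 8 passed 2-fold, 2 higher and 6 lower, where 5.39% and 7.08% of all genes with enough reads did. The count of 8 became 18 with no filter on reads, 1 with at least 100 reads, 20 at 1.5-fold and 3 at 4-fold, all 3 of them lower. Total-count scaling gave 2 symbols past 2-fold at the level of 4 in place of 1. Shares of all genes were not computed for these alternatives, so that their counts cannot be set against those of all genes. The median log2 ratio of -0.18 was -0.056 with total-count scaling, -0.083 with at least 100 reads, -0.24 without the 5 symbols that are not channels (an alternative chosen after seeing the data), and 0.16 with 1 read or more, where its sign was opposite.

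The epithelial median of -0.083 turned to 0.042 with total-count scaling, and the smooth muscle and interstitial median of -0.30 moved to -0.17 with that scaling and to 0.68 with scaling by smooth muscle markers. The log2 ratio of the summed reads was 0.38 for the epithelial group, 0.50 with total-count scaling and 0.015 without Kcne3. For the smooth muscle and interstitial group it was 0.019, 0.14 with total-count scaling and -0.18 without Kcnma1, which is also its value with Kcnma1 moved to the epithelial group, a choice made after seeing the data. For the neuronal group it was 0.22 and, without Kcnip4, 0.020. For the immune and glial group it was 0.87 and, without Kcna3, 1.91.

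For the 46 single symbols, DESeq2 size factors moved no log2 ratio beyond its counting interval. Total-count scaling moved 1, Kcne3, to 0.96, and turned the sign of 4 ratios near 1 (Kcna1, Kcnj8, Kcnk6 and Kcnq1ot1). With it, the interval lay above 1 for 8 symbols, Kcnd3 among those added, and below 1 for 6, Kcnc4, Kcnk5 and Kcnn3 being lost. Total-count scaling adds the same 0.125 to every log2 ratio, and these moves of single symbols follow from that shift. Scaling by markers likewise adds a constant to every log2 ratio, set by the summed marker reads of the libraries. Sums without the most read gene, or with Kcnma1 moved, change only by the reads of that gene. Depth limits the members with few reads: at 20 reads in sum, intervals spanned several-fold.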
